A study of Bos taurus with 24 samples.

Results

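The 150 genes described here were the steadiest between bulls in testicular RNA, and they are described as candidate reference genes for this tissue. They were chosen by their own values. The count of a gene was summed over its exon bins, an exon bin being a stretch of exon that the same transcripts share, and scaled by the total of its library to give CPM, the counts on a gene in every 1000000 counts of the library. Genes with 2 to 49 bins and a mean count of at least 200 were kept, identifiers that join overlapping genes and the 100 genes of highest mean CPM were left out, and the 150 genes with the smallest standard deviation (SD) of log2(CPM + 0.1) over all 24 bulls were taken. They are 1.90% of the 7913 eligible genes, among 24525 features in all. Their SD, their level and their differences between diets are therefore a description and carry no test.

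Testicular parenchyma was collected at 72 wk of age from 24 Holstein bulls, with 8 bulls in each diet group and 1 library per bull. During the pre-pubertal period HD bulls were fed 20.0% crude protein and 67.9% total digestible nutrients, MD bulls 17.0% and 66.0%, and LD bulls 12.2% and 62.9%. Libraries held 9163675 to 21902110 counts on genes. The tissue is a mixture of germ cells and somatic cells, so fewer cells of a type and less RNA per cell cannot be told apart. The identifiers in the files were not paired with gene symbols here, so members are called by their rank (rank 1 has the smallest SD), functions are not given, and markers of testicular cell types were not analysed here.

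A reference gene is one whose RNA is taken as constant, so that the level of another gene in a PCR can be divided by it. In a tissue of many cell types this asks that neither the cell mixture nor the treatment moves the gene, and in practice the geometric mean of several genes is used. RNA-seq adds a condition of its own, since a gene is only steady relative to the total that its library was scaled by. CPM is not divided by gene length, so the levels below rank genes by reads and not by molecules.

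The SD of log2(CPM + 0.1) ran from 0.0960 to 0.163 in the 150 genes, with a median of 0.146. Over all eligible genes the median was 0.374. The gene at rank 150 had an SD of 0.1626 and lay between 106 and 168 CPM, and the next gene, just outside, had an SD of 0.1629 and lay between 58.7 and 99.4 CPM. The limit therefore cuts through a dense run of genes and marks no gap. The highest bull was 1.27 to 1.80 times the lowest in each member, with a median of 1.51, against a median of 3.13 over all eligible genes. A ratio under 2 was reached by 1027 eligible genes (12.98%), which include all 150 members. Counting error alone, computed from the size of the counts, made up 7.47% of the variance in the median member. This share ran from 0.983% to 59.0%.

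**Figure D1:**
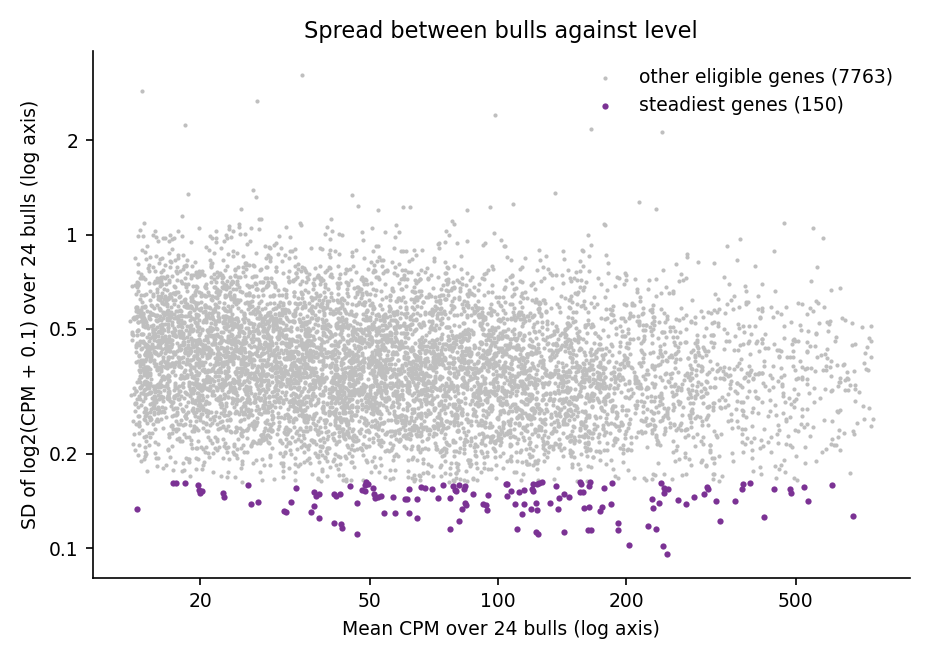
Each point is an eligible gene, with its mean CPM over 24 bulls on the x axis and the SD of its log2(CPM + 0.1) over the same bulls on the y axis, both on log scales. The 150 steadiest genes (purple) form the lower edge at every level from 14.2 to 682 CPM, and their limit at an SD of 0.163 is the limit of the choice itself.

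Steady genes were found at all levels but more often at high ones. Mean CPM in the members ran from 14.2 to 682, with a median of 105 against 51.2 over all eligible genes. When the eligible genes were split into 4 equal classes by mean CPM, members made up 0.606% of the lowest class, 1.31% and 2.02% of the next ones and 3.64% of the highest class, which held 72 of the 150. The median SD of all genes fell from 0.419 in the lowest class to 0.340 in the highest, so the level and the spread went together beyond the members. The member of highest level, rank 24, had 648 ± 81.4 CPM in HD, 694 ± 17.9 in the MD group and 704 ± 32.3 in the LD group (SD, n = 8). The member of lowest level, rank 38, had 14.9 ± 1.83, 13.9 ± 1.03 and 13.8 ± 0.981 CPM. Its mean count of 203 is just over the minimum asked of an eligible gene.

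The gene at rank 1, ENSBTAG00000007203, has 18 exon bins and lay between 221 and 281 CPM over the 24 bulls. In HD bulls its lowest, median and highest values were 221, 253 and 281 CPM, in MD bulls 230, 249 and 266 CPM, and in LD bulls 231, 248 and 274 CPM. The 3 diets overlapped almost completely, and the HD bulls held both the lowest and the highest value. Its means were 250.01 ± 23.1, 249 ± 12.3 and 249.7 ± 14.7 CPM (SD, n = 8), which differed by less than the spread within any diet. The gene at rank 2, ENSBTAG00000019714, has 11 bins and had 223, 248 and 279 CPM in HD, 208, 245 and 262 CPM in MD, and 227, 237 and 269 CPM in LD bulls (lowest, median, highest). Its lowest value came from MD bull 6 and its highest from HD bull 13, and its diets overlapped as well.

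**Figure D2:**
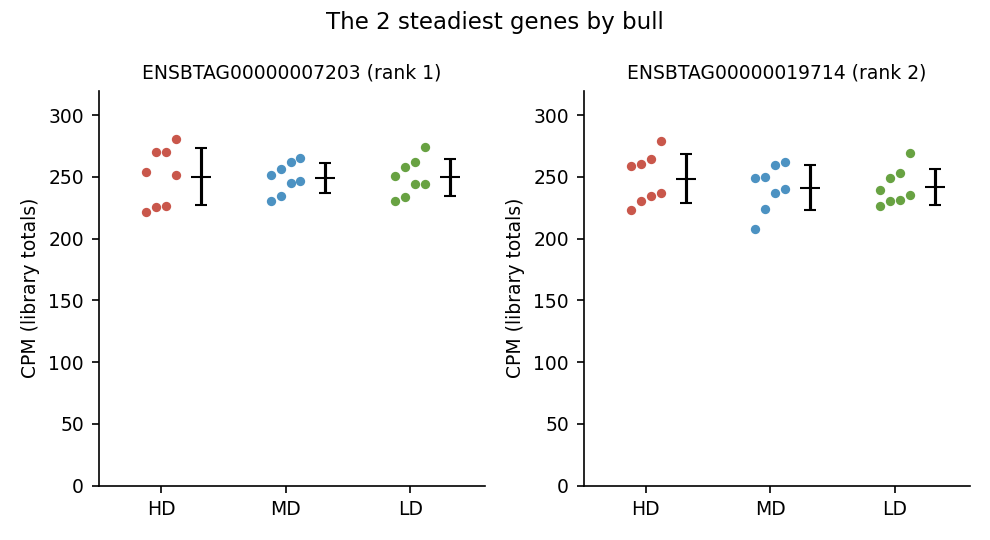
CPM scaled by library totals for the genes at rank 1 (left) and rank 2 (right). Each point is 1 bull of the HD, MD or LD group, and the black bar is the mean with its SD over 8 bulls. All 24 bulls lie between 221 and 281 CPM for rank 1 and between 208 and 279 CPM for rank 2, and the diets overlap in both.

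Among the members the HD bulls spread more than the others, as they did over all genes. The median SD within a diet was 0.168 for HD, 0.116 for MD and 0.118 for LD bulls among the members, and 0.460, 0.271 and 0.254 for all eligible genes. The HD group had the widest SD in 103 members (68.7%) and in 79.9% of eligible genes. Without HD bull 14 the median SD in HD bulls fell to 0.147 in the members and 0.362 in eligible genes, and HD was the widest group in 87 members (58.0%) and 64.4% of eligible genes. Single bulls set the extremes of many members. HD bull 14 had the lowest value in 35 members and HD bull 8 in 31, while HD bull 13 had the highest in 29. HD bulls 8 and 14 were also often the lowest over the eligible genes, in 2445 and 2169 of 7913 genes. HD bull 13 was highest in 541 of these genes and lowest in 716. The bull most often highest there was MD bull 6, in 1833 genes, which was highest in 13 members.

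Members had fewer exon bins than other eligible genes, with a median of 8.5 against 11. Genes with 6 to 10 bins gave 76 of the members (3.24% of 2346 such genes), those with 2 to 5 bins gave 27 (1.71% of 1577), those with 11 to 20 bins gave 42 (1.59% of 2649), and those with 21 to 49 bins gave 5 (0.373% of 1341). Over all eligible genes the median SD was also lowest, at 0.338, with 6 to 10 bins and highest, at 0.440, with 21 to 49 bins. The most covered bin of a member held a median of 26.3% of its counts, and 23.6% over all eligible genes.

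The differences between diets in these genes are bounded by the choice. On the scale of the choice, the difference of mean log2 CPM between HD and MD bulls lay between -0.22 and 0.21 in the members, with a median of -0.02, and between -1.67 and 1.097 in all eligible genes, with a median of -0.17. HD was above MD in 68 of the 150 members and in 2533 of the 7913 eligible genes. Between HD and LD bulls the members' differences lay between -0.24 and 0.18, and between MD and LD bulls between -0.17 and 0.12. Members therefore stayed near 0 where the median gene had a lower CPM in HD bulls.

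The direction changed with the scaling. Trimmed mean of M values (TMM) scaling, which sets the typical gene and not the library total as the common level, moved the HD bulls upward, since their TMM factors were 0.914 ± 0.0796 against 1.06 ± 0.0812 for MD and 1.04 ± 0.0538 for LD (mean ± SD, n = 8). After it, the edgeR quasi-likelihood test gave the members a log2 fold change for HD over MD between 0.00 and 0.44, with a median of 0.20, and all 150 were above 0. With library sizes only, the fitted log2 fold changes lay between -0.21 and 0.22, with a median of -0.02, and 69 were above 0. The median over all 15005 features tested was 0.00 with TMM and -0.21 with library sizes only. Relative to that median the members were higher in HD bulls by 0.20 with TMM and by 0.19 with library sizes only. The scales differ by 1 factor per library, which moves every gene alike, so these values had to be close. For HD over LD the members' median was 0.16 with TMM (147 above 0) and -0.03 with library sizes only (59 above 0), which is 0.15 above the median feature on either scale. For MD over LD it was -0.04 and -0.02, and relative to the median feature -0.05 on either scale.

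**Figure D3:**
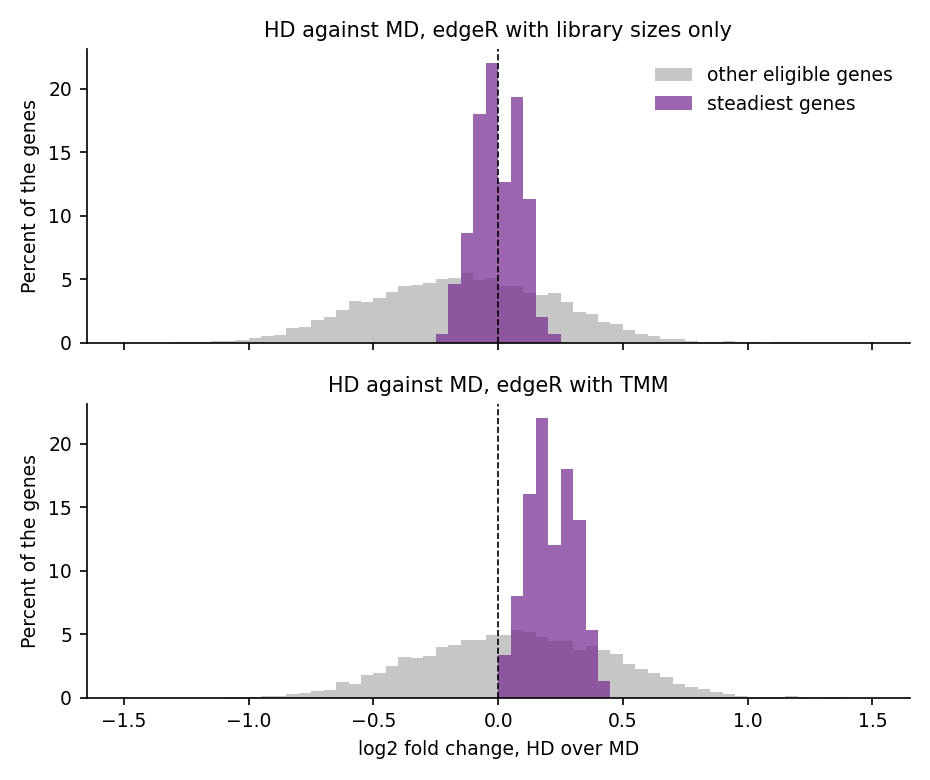
Distribution of the log2 fold change for HD over MD, as percent of the genes in bins of equal width, for the 150 steadiest genes (purple) and the other eligible genes (grey), from edgeR with library sizes only (top) and with TMM (bottom). With library sizes only the members lie on both sides of 0, between -0.21 and 0.22, and with TMM all of them lie above 0, up to 0.44.

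With TMM, 25 members were differentially expressed between HD and MD bulls at an adjusted P under 0.1 (edgeR, Benjamini-Hochberg over all features), all of them higher in HD, where 14.1% of all features were called and 8.68% were called higher in HD. Since the choice used these same bulls, nothing is read from this or any other count of members called between diets. With library sizes only, 1 member was called, beside 23.6% of all features, and the calls over all features turned from 1302 higher and 814 lower in HD bulls to 542 higher and 3005 lower. DESeq2's Wald test called 56 members, beside 19.9% of the features it tested. The member called with library sizes only was ENSBTAG00000030587, at rank 80, which also had the highest log2 fold change of the members with TMM. It had 79.4, 103 and 121 CPM in HD, 80.0, 86.7 and 94.2 CPM in MD, and 91.6, 94.9 and 102 CPM in LD bulls (lowest, median, highest). Its log2 fold change for HD over MD was 0.44 with a standard error of 0.11 by edgeR with TMM, and 0.22 with a standard error of 0.09 with library sizes only. It was chosen for its small SD in these bulls and then singled out for its call, so its call is a description as well. With TMM, 0 members were called in the 8 fits without MD bull 4, 6, 16, 17 or 19 or HD bull 7, 8 or 13. Only 1 feature in all was called in each of those fits, so the loss was not particular to the members. At rank 80 the lowest HD bull lay below every MD bull while the other HD bulls were near or above the highest MD bull.

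No member and no other feature was called between HD and LD or between MD and LD bulls by edgeR with TMM. At an unadjusted P under 0.05, 35 members and 17.7% of all features differed between HD and LD bulls, and 0 members and 1.07% of all features between MD and LD bulls. DESeq2's Wald test called 10 members between HD and LD bulls, where it called 6.01% of the features it tested, and 0 features between MD and LD bulls. For the genes at ranks 1 and 2 the log2 fold changes for HD over MD were 0.22 and 0.26 with standard errors of 0.09 and 0.10 by edgeR with TMM, given as a description. With library sizes only they were 0.01 and 0.04.

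The choice of genes itself depended on the scaling more than on the pseudocount. When the same rule was applied to CPM scaled by TMM, 36 of the 150 members (24.0%) were chosen again, and 34 with DESeq2's size factors. The members had a median rank of 405 on the TMM scale, and 125 of them ranked in the first 1000, so most stayed steady without being the steadiest. Their median SD was 0.199 on that scale, against 0.371 over eligible genes. The gene at rank 13 was at rank 5 on the TMM scale, with SDs of 0.115 and 0.108 on the respective scales, and the gene at rank 24 was at rank 9 there, with SDs of 0.127 and 0.112. Rank 13 had 103 ± 8.46 CPM for HD, 112 ± 4.44 for MD and 117 ± 5.69 for LD bulls, and a log2 fold change for HD over MD of 0.10 with TMM (standard error 0.09, by edgeR). By contrast rank 2 was at rank 381 with TMM and rank 1 at rank 96. These ranks were looked up after the values were seen.

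The ratio of a pair of genes in a library needs no scaling. Over the 11175 pairs of members the SD of the log2 ratio between bulls was 0.195 in the median and ran from 0.0735 to 0.295. Over all pairs of eligible genes the median was 0.524. The 150 genes chosen on the TMM scale gave a median of 0.201, close to that of the members, and the 36 genes common to both choices gave 0.160. The SD of a ratio is bounded by the SDs of its genes, so these values are set largely by the choice and are given as a description.

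The geometric mean of the 150 genes was taken in each bull. With library totals it was 97.2 ± 3.50 CPM for HD, 97.6 ± 2.09 for MD and 99.0 ± 1.43 for LD (SD, n = 8), and ran from 93.5 in HD bull 14 to 104 in HD bull 13. With TMM it was 107 ± 10.4, 92.6 ± 8.14 and 95.6 ± 5.77 CPM, and ran from 79.1 in MD bull 6 to 126 in HD bull 13. Its SD on the log2 scale over all 24 bulls was 0.0370 with library totals and 0.146 with TMM. The genes together took 2.02% to 2.30% of the counts of a library.

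**Figure D4:**
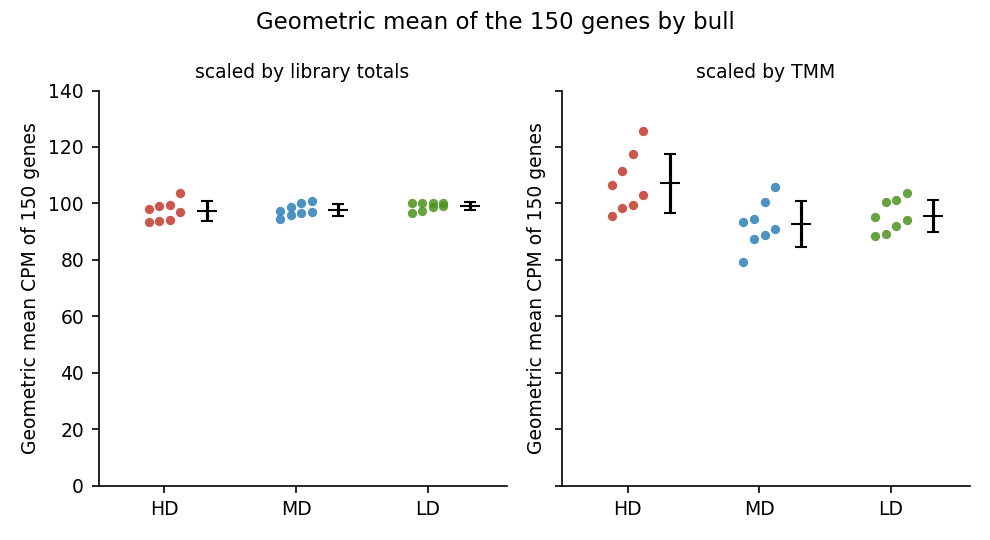
Geometric mean CPM of the 150 genes in each bull, scaled by library totals (left) and by TMM (right), with the mean and SD of 8 bulls per diet as black bars. The bulls lie between 93.5 and 104 CPM on the left, and between 79.1 and 126 CPM on the right, where the HD bulls average 107 and the MD bulls 92.6 CPM.

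Averaging more genes narrowed the mean in the bulls that the genes were chosen in. Over all bulls the SD of the log2 geometric mean was 0.0960 for the first gene alone, 0.0750 for the first 3, 0.0597 for the first 5, 0.0511 for the first 10 and 0.0386 for the first 20, and it changed little beyond that, with 0.0370 for all 150. On the TMM scale the same means had SDs of 0.157, 0.155, 0.140, 0.148 and 0.144.

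The choice was then repeated with the 16 bulls of 2 diets and looked at in the 8 bulls of the diet left out. The 150 genes chosen without the MD bulls had a median SD of 0.147 within MD, against 0.271 over eligible genes, and 144 of them lay below that median. Those chosen without the LD bulls had a median SD of 0.137 within LD, against 0.253, with 146 below the median. Those chosen without the HD bulls had a median SD of 0.0960 in the 16 bulls used and of 0.309 within HD, against 0.462 over eligible genes, and 119 lay below the median. Without HD bull 14 this fell to 0.192, against 0.364, with 118 below. Of each 150 genes, 14 were also among the 150 steadiest of the diet left out for HD, out of 8023 eligible genes, 22 for MD, out of 7885, and 25 for LD, out of 7843. The widest of them there had an SD of 0.908 for HD, 0.357 for MD and 0.323 for LD. The genes chosen without HD bulls had a median log2 fold change for HD over MD of 0.14 with TMM and -0.07 with library sizes only, where the medians over all features tested were 0.00 and -0.21. Of these genes, 49 were members, against 110 and 115 of those chosen without MD and without LD bulls. Over the 8 HD bulls, the log2 geometric mean of the genes chosen without them had an SD of 0.190 for the first gene, 0.244 for the first 2, 0.260 for the first 3, 0.217 for the first 5, 0.142 for the first 10 and 0.147 for all 150. There the means of 2, 3 and 5 genes spread more than the first gene alone. The same means on the TMM scale had SDs of 0.136, 0.268, 0.295, 0.268, 0.135 and 0.0923. In MD bulls the SD on library totals was 0.214 for the first gene, 0.0691 for the first 10 and 0.0385 for all 150. In LD bulls it was 0.174, 0.0456 and 0.0231. On the TMM scale these SDs were 0.180, 0.139 and 0.127 in MD bulls, and 0.209, 0.101 and 0.0840 in LD bulls.

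A single bull decided much of the list. Leaving out HD bull 14 kept 71 of the 150 members, and leaving out HD bull 8 kept 107. Without HD bull 13 it was 126, without MD bull 6 127, and each other bull left 132 to 145 in place. HD bull 14 had the smallest library, at 9163675 counts. HD bull 8 had the lowest share of reads that fell on no annotated exon, 9.54%, and MD bull 6 the highest, 21.4%. With 1 library per bull, a bull and its library cannot be told apart. The part of depth or of that share was not tested. HD bull 14 lay a median of 0.82 from the mean of the other bulls on the log2 scale in the 79 genes that entered without it, 0.57 in all eligible genes and 0.18 in the members. The order of these values is fixed by how the sets were picked, since a gene enters without a bull where that bull lies far from the others.

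A steady sum over bins does not make each bin steady. The members have 1399 bins, of which 18 were at 0 in every library and 485 were well covered, averaging 200 counts or more. Of the latter, 183 (37.7%) had an SD no wider than that of the gene at rank 150, against 226 of 13236 (1.71%) such bins in all eligible genes, so 183 of the 226 lay in members. Such a steady and well covered bin was present in 79 members, of the 115 that have a bin of that depth. Bins are parts of the sums that were chosen as steady, so the share of steady bins in members is set largely by the choice. A PCR product covers a few bins at most and not the whole gene. The most covered bin alone, scaled by library totals over all bins, had a median SD of 0.173 in the members and was within the limit in 53 of them.

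When the bins of a gene were split by number into a low-numbered and a high-numbered set, 132 members had at least 4 bins and at least 100 mean counts in each set. The wider of the sets had a median SD of 0.177 between bulls, against 0.408 over 6104 eligible genes, and 37 members had both sets within the limit of the choice. The tightest was rank 2, whose wider set had an SD of 0.121. Across the 24 bulls the sets correlated with a median Pearson r of 0.58 in the members and 0.89 in the eligible genes, a description over genes that share libraries. The choice itself bounds the variation between bulls that the sets of a member can share. In 5 members (3.79%) r was below 0, as in 0.377% of eligible genes, and in 4 members a set had an SD over 0.3. These were at ranks 130, 88, 41 and 79.

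The clearest case was ENSBTAG00000030384, at rank 41, which was named after its values were seen. The whole gene had 148, 167 and 191 CPM in HD, 129, 160 and 183 CPM in MD, and 146, 157 and 175 CPM in LD bulls (lowest, median, highest). Its bins 1 to 9 had 62.3, 79.1 and 121 CPM in HD, 43.1, 59.8 and 89.7 CPM in MD, and 47.6, 67.7 and 82.5 CPM in LD bulls. Its bins 10 to 18 had 68.0, 76.1 and 105 CPM in HD, 85.7, 94.3 and 122 CPM in MD, and 74.8, 93.4 and 103 CPM in LD bulls. So the low-numbered bins were high in some HD bulls, with over 107 CPM in HD bulls 8, 10 and 13 and under 90 in every other bull, and the high-numbered bins were low in most HD bulls. The sets moved against one another across bulls, with a Pearson r of -0.67 and SDs of 0.382 and 0.210, while their sum had an SD of 0.135. Low-numbered bins took 51.7% ± 9.81 of the gene in HD, 39.3% ± 6.72 in MD and 42.0% ± 6.07 in the LD group (SD, n = 8), and the diets overlapped.

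The change lay at a gap in coverage. Bins 1 to 8 each took a larger mean share of the gene in HD than in MD bulls, by 0.25 to 0.58 on the log2 scale, and bins 12 to 18 each took a smaller one, by -0.54 to -0.26. Between them, bins 9, 10 and 11 had mean counts of 1.29, 0.0833 and 0. Bin 3 had 20.2 ± 5.02 CPM in HD and 14.6 ± 3.89 in MD bulls, and bin 13 had 21.7 ± 3.54 in HD and 25.1 ± 2.72 in MD bulls (SD, n = 8). Whether the covered stretches belong to 1 transcript or to separate ones cannot be read from bin counts. The low-numbered bins had a Spearman rho of -0.87 with the library's share of reads outside exons over the 24 bulls, and the high-numbered bins one of 0.47. The part of that share in the result was not tested.

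**Figure D5:**
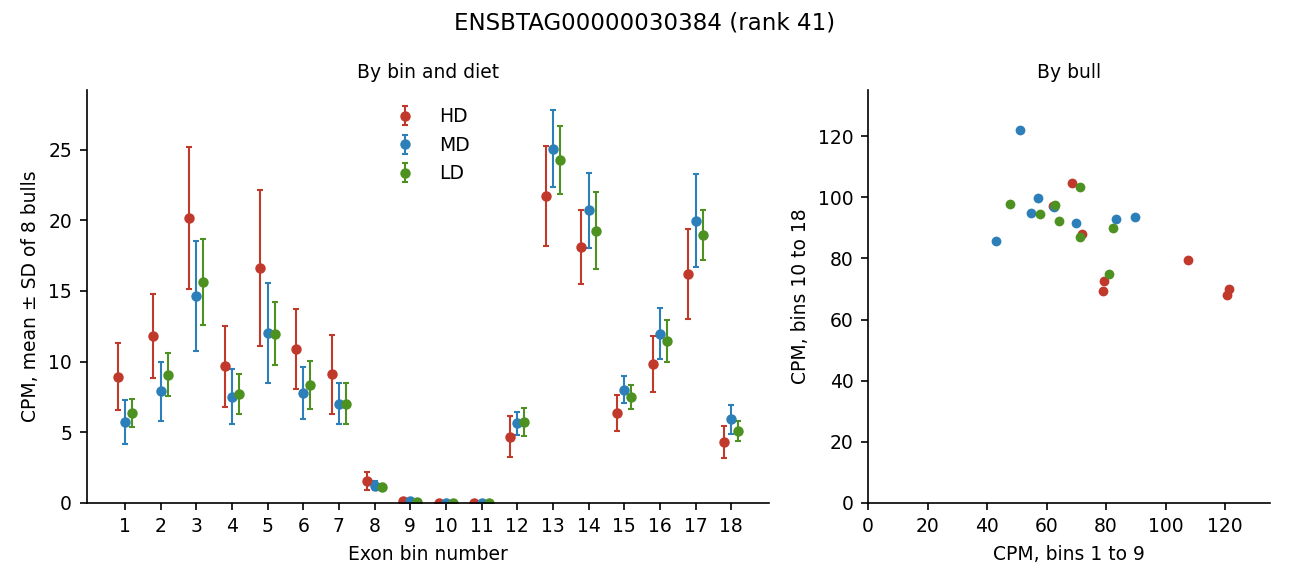
The gene at rank 41. Left, CPM of each exon bin as the mean ± SD of 8 bulls per diet. Right, CPM of bins 1 to 9 against CPM of bins 10 to 18, with each point a bull. HD means exceed MD means in bins 1 to 8 and lie below them in bins 12 to 18, and the 3 HD bulls at over 107 CPM on the x axis are among the lower ones on the y axis.

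Exon usage, the share of a gene's counts in each bin, was tested because the choice read only gene sums. The voom and diffSplice F test of limma called 14 of 11154 features between HD and MD bulls at an adjusted P under 0.1, which is 0.126% of those tested, and 3 of them were members. The smallest adjusted P among the members was that of rank 41, at 9.29e-05 by limma's F test, followed by rank 80 at 0.0191 and rank 130 at 0.0481. The F test takes its error from the gene's own bins, which the choice of steady sums can narrow, so the count is not read as particular to the members. It also takes each bin as a separate value, whereas bins 1 to 8 of rank 41 went together between bulls: singly their SDs were 0.37 to 0.44, and that of their sum with bin 9 was 0.38. By the Simes test, which asks for a single strong bin, 5 features (0.0448%) and 0 members were called, and the adjusted P of rank 41 was 0.998. A limma test on the log2 share of each bin per bull called 2 features (0.0179%) and 0 members, and its smallest adjusted P among members was 0.416. Rank 41 was called by the F test in each of the 24 fits that left out a bull, with adjusted P from 2.99e-07 to 0.0400. Rank 80 was called in 18 of them and rank 130 in 15. Between HD and LD bulls the F test called 0 features, with 76 features (0.681%) and 4 members at an unadjusted P under 0.05, and between MD and LD bulls 0 features, with 14 features (0.126%) and 0 members at that level. With library sizes only it called 9 features (0.0807%) and 3 members between HD and MD bulls, and rank 41 alone (0.00897%) between HD and LD bulls.

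In ENSBTAG00000030587, at rank 80, both sets of bins rose and fell together, and the difference lay among its 7 bins singly. Bin 3 had 12.3 ± 2.92 CPM for HD, 8.47 ± 1.28 for MD and 9.86 ± 1.08 for LD bulls, and bins 4, 5 and 6 were likewise higher in HD than in MD bulls in the mean. Bins 1 and 2 went the other way, with 1.48 ± 0.289 CPM for HD and 2.21 ± 0.609 for MD in bin 1, and 2.67 ± 0.881 for HD and 3.39 ± 0.600 for MD in bin 2 (SD, n = 8). Bin 7, which holds the largest share, had 42.1 ± 5.03, 42.5 ± 2.30 and 46.3 ± 5.52 CPM. It made up 41.8% of the gene for HD, 49.03% for MD and 48.2% for LD bulls. These CPM are scaled by library totals.

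In the gene at rank 130, with 26 bins, bins 1 and 2 carried most counts, and the 13 high-numbered bins had 2.05, 5.24 and 6.07 CPM in HD, 5.95, 8.39 and 13.8 CPM in MD, and 4.81, 7.49 and 10.3 CPM in LD bulls (lowest, median, highest). Each HD bull except HD bull 11 lay below every MD bull there, while the whole gene had 47.5 ± 5.83, 50.3 ± 5.97 and 48.5 ± 4.72 CPM and its diets overlapped. Over the 24 bulls, the Spearman rho of these high-numbered bins with the library's reads outside exons, as a share, was 0.59, and that of the low-numbered bins was -0.12. The part of that share in the difference was not tested. Its bins beyond bin 2 had mean counts of 3.33 to 23.9 each, so this rests on sparse bins. With bins of a mean count under 10 left out, rank 130 was no longer called.

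The share of reads outside exons, given in the deposited files as reads that fell on no annotated exon, was 9.54% to 21.4% of a library and moved with many genes. Across the 24 bulls it had a Spearman rho over 0.5 in size with 55.0% of eligible genes. In the members this held for 19.3%, 20 with a rho under -0.5 and 9 over 0.5, and their median rho was -0.08. The choice used these same values and leaves out genes that move much with the share, so this contrast is a description. On the TMM scale the median rho of the members was -0.54, with 88 under -0.5 and 0 over 0.5, and that of the eligible genes was -0.15, with 2592 of 7913 under -0.5 and 1851 over 0.5. Since the members were chosen to be nearly constant on library totals, their TMM-scaled values follow the TMM factor of the library, and a shared sign of rho on that scale comes with the choice. Within diets the members' median rho on the TMM scale was -0.50 (HD), -0.70 (MD) and -0.48 (LD), against -0.095, -0.21 and -0.12 in eligible genes, and is bound by the choice in the same way. The share itself was 12.3% ± 2.17 for HD, 14.5% ± 3.28 for MD and 13.3% ± 1.83 for LD bulls (SD, n = 8). Its part in the higher TMM-scaled level of the members in HD bulls was not tested.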

How the data were processed

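Total RNA of testicular parenchyma was made into stranded mRNA libraries by the authors, 1 per bull. The submitters' processing notes name TopHat2 2.0.10, Bowtie 1.1.2, featureCounts, DESeq2 and the genome build UMD3.1. The deposited values are read counts on 210707 exon bins per library, not normalized by the authors. The names of the deposited counts carry the word dexseq. The program that counted the bins is not otherwise named in the sources used here, and its use of strand is not given.

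Gene counts were summed over bins. Members and lists were chosen with earlier results of these data known. Differences between diets were tested with edgeR 4.0.16 under R 4.3.3 (filterByExpr, TMM, glmQLFit and glmQLFTest, all libraries in 1 fit, diet as the only factor, Benjamini-Hochberg adjustment, adjusted P under 0.1). DESeq2 1.42.0 was an alternative. Exon usage used limma 3.58.1 (voom, diffSplice). Descriptions used Python 3.11.15. The edgeR, DESeq2 and exon usage tests and the test on bin shares were run on simulated data with planted differences. The simulated bins varied independently, so bins that move together were not covered. Bulls are separate animals, and at 9163675 to 21902110 counts per library the spread between bulls exceeds counting error in most genes. The rule for named genes listed the extremes of SD, level and fold change, the members beside the limit and those with an exon usage call, with at most 2 identifiers. ENSBTAG00000030384 and ENSBTAG00000030587 were added after their values were seen. Gene functions, promoters, proteins, cell type markers and the PCR reference gene of the study were not analysed here, since identifiers were not paired with symbols.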

Additional observations from a re-analysis of the deposited data

Results flagged for a closer look

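Within the diets, 51 sets of 8 values were tested for a bull that stood apart by Dixon's criterion, and 3 had one. Chance gives about 1 in 20, or 2.55 sets. The sets are overlapping measures of the same bulls, such as a gene and its bins, so these counts are not compared. The low-numbered bins of the gene at rank 130 had 57.0 CPM in HD bull 14, with the next HD bull at 44.8 CPM. In the high-numbered bins of ENSBTAG00000030384 (rank 41), MD bull 17 had 122 CPM, above the next MD bull at 99.7 CPM. The low-numbered bins of ENSBTAG00000007203 (rank 1) had 95.8 CPM in LD bull 24, below the next LD bull at 107 CPM.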

How the results depend on the processing

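Of the 150 members, 36 were kept with TMM, 34 with DESeq2's size factors and 50 with the most covered bin of each gene, and 71 (without HD bull 14) to 145 when a bull was left out. Their median SD was 0.199 with TMM, 0.206 with DESeq2's size factors and 0.197 with the most covered bin scaled by the sum of these bins, and 0.139 to 0.148 with a bull left out.

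Called features between HD and MD bulls went from 2116 to 3547 with library sizes only, 1298 with the most covered bin, and 1 both without a filter on low counts and with only the 2 diets fitted. With a bull left out they were 1 to 4019. They were 1 without MD bulls 4, 6, 16, 17 and 19 and HD bulls 7, 8 and 13. They were 4019 without HD bull 12, 3596 without HD bull 14 and 3600 without MD bull 18. They were 3093 without MD bull 5, 2911 without HD bull 9 and 3164 without HD bull 11. Without MD bull 15 they were 1613, and without LD bull 20 they were 1618. The 25 called members became 1 with library sizes only, 56 with DESeq2, 8 with the most covered bin, 0 without a filter and 0 with only 2 diets. With a bull left out they were 0 (the same 8 bulls) to 56 (without MD bull 18). They were 40 to 53 without MD bull 5 or HD bulls 9, 11, 12 and 14. Without MD bull 15 or LD bull 20 they were 15 to 16. In each of these fits the calls over all features moved in the same direction as those of the members. The members' median log2 fold change reversed to -0.018 with library sizes only, and was 0.16 to 0.23 with a bull left out. Between HD and LD bulls it reversed to -0.028 with library sizes only. There DESeq2 called 518 features and 10 members, and leaving out HD bull 12 gave 716 and 4 in place of 0.

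Exon usage between HD and MD bulls gave 14 features and 3 members, and 5 and 0 by the Simes test, 9 and 3 with library sizes only, 5 and 1 with only 2 diets, and 2 and 0 with limma on bin shares, which was added after the data were seen. With a bull left out the features were 5 to 25 (over 1.5 times fewer without HD bulls 10, 13, 14 and MD bulls 4, 6, 15, 17, 19, more without HD bulls 9, 11, 12) and the members 1 to 3 (1 without HD bulls 10, 13, 14 and MD bulls 6, 17, 19). Between HD and LD bulls, 1 feature, a member, was called with library sizes only, and 0 to 3 features and 0 to 1 members with a bull left out (features without HD bulls 8, 9, 11 and 12, members without HD bulls 9 and 12). Between MD and LD bulls, 1 feature was called with only 2 diets and 0 to 1 with a bull left out (LD bull 2). The cause of these changes was not tested.

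With TMM, held-out SDs were 0.349 (HD), 0.161 (MD) and 0.150 (LD). Promoter and protein features were not run, since identifiers were not paired with symbols here. No paired analysis was possible because the bulls of different diets share no replicate number.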
